A study of Mus musculus with 8 samples.

Results

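The histone demethylases of the JmjC family described here are 10 genes, Jmjd1a (Kdm3a), Jmjd1b (Kdm3b), Jmjd2a (Kdm4a), Jmjd2b (Kdm4b), Jmjd2c (Kdm4c), Jarid1a (Kdm5a), Jarid1b (Kdm5b), Jmjd3 (Kdm6b), Fbxl10 (Kdm2b) and Jmjd6, each given by its older name with the current one in brackets. They are a named gene family, chosen with earlier results of these data known. They were found through every probe annotated to a member by its RefSeq transcript, current symbol or an older name. That rule uses no threshold on measured values. The array held 23 such probes among 41174, and all 10 genes were among the 17099 that entered the comparison. The samples were whole mouse embryos at embryonic day 9.0, 4 wild-type pools and 4 Arid3b-null pools of 3 to 4 embryos each, and total RNA of each pool was hybridised to a 1-colour Agilent array. Arid3b encodes a DNA-binding protein with an AT-rich interaction domain. The mutation is given in the labels only as Arid3b-null, with no strain, litter or Cre, so the allele and whether pools shared a litter are not known here, and p-values measure only the spread between these pools.

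JmjC demethylases remove methyl groups from histone lysines by hydroxylation, in a reaction that consumes molecular oxygen and 2-oxoglutarate at a bound iron atom. The JMJD1 enzymes act on H3K9me2, a mark of silent genes. The JMJD2 enzymes act on H3K9me3 and H3K36me3. The JARID1 enzymes remove H3K4me3, a mark of active promoters, and JMJD3 removes the Polycomb mark H3K27me3. Some of these genes, Jmjd1a and Jmjd2c among them, are known transcriptional targets of the hypoxia-inducible factor HIF, which is itself set by oxygen through related dioxygenases, the prolyl hydroxylases.

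HIF binds DNA at the core letters ACGTG or GCGTG, and these letters were looked for on both strands of RefSeq promoter windows of 300 bases, from 250 before to 50 after a transcript's start (GRCm38.p6). Windows were given for 6 of the 10 members, Jmjd1a, Jmjd2a, Jmjd2c, Jarid1b, Fbxl10 and Jmjd6, and 5 of these 6 held a core in at least 1 window. Of all 27025 genes with a window, 46.7% did. Both counts take any window of a gene, and genes with several windows, such as Jmjd1a and Fbxl10, have more places for a match. The 250 bases before the start are shown for the 2 members that rose in the null pools, with each core in capitals, and for Jmjd2a, the paralogue of Jmjd2c without a core. Coordinates are those of the bases shown, in each case written along the gene's strand.
Jmjd2c, chr4:74251629-74251878, plus strand: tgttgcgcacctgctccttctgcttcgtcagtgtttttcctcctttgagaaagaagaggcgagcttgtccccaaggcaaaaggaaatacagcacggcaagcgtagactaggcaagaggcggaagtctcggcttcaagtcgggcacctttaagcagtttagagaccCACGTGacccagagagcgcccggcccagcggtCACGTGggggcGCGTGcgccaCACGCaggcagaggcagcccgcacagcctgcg
Jmjd1a, chr6:71632918-71633167, minus strand: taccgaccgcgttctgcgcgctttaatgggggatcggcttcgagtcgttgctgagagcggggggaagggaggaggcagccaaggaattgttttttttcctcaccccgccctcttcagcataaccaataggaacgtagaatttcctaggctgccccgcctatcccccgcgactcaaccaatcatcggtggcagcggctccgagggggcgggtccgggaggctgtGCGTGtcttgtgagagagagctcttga
Jmjd2a, chr4:118180044-118180293, minus strand: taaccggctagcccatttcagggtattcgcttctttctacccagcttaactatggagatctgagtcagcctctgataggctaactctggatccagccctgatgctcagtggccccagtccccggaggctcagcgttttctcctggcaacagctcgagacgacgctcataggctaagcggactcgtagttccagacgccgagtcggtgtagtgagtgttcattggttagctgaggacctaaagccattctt

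The Jmjd2c window held 6 matches at 4 separate places, the first letters lying at positions -85 to -32 relative to the start, since the palindrome CACGTG reads as a core on both strands and occurred at 2 of these places. The CACGTG letters are also the canonical E-box bound by other factors. The Jmjd1a window held 1 core, whose first letter lies at position -27. Jmjd2c had another window with 0 cores, and Jmjd1a had 2 further windows with 0 cores, so the match depends on which annotated start is in use, which the array does not measure. Cores were common in windows of this base composition. The Jmjd2c window was 64.7% GC and the Jmjd1a window 60.7%, and 67.9% of all windows from 60 to under 70% GC held a core, against 43.8% of all 32851 windows. Among the members that did not rise, Jarid1b and Jmjd6 held 2 cores each in their only window, and each of the 4 Fbxl10 windows held 1 to 3.

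Across the arrays, 59.9% to 64.1% of probes were well above background, and the signal at the 75th percentile ranged from 1280 to 1703. With 8 arrays, precision is limited by their number. All values are log2 signals relative to the 75th percentile of their own array, so that 0 is that percentile, and differences are given as null minus wild type ± the standard error from limma. A gene was called at a limma adjusted p under 0.05 over all genes tested. Pools 1 and 2 of each group shared slide 1 and pools 3 and 4 slide 2. Wild-type pools took positions 1 and 2 and null pools positions 3 and 4 on both slides, so position and genotype cannot be told apart. Arid3b was lower in every null pool, at 1.89, 1.83, 1.85 and 2.48 against 3.29 to 3.47 in wild-type pools (limma adjusted p = 0.00577). Markers of neural tube, heart and primitive erythroid cells were well above background on all 8 arrays, as were 3 of the 4 somite markers, Myf5 being detected on none. Yolk sac endoderm markers were also present (6 of 7 on all 8 arrays), and their summed level, in multiples of each array's 75th percentile, overlapped between wild-type (12.0 to 22.0) and null (11.6 to 21.5) pools. The summed level of the 4 heart markers did not overlap, with 98.0 to 107 in wild-type pools and 114 to 134 in null pools, and 1 of the 4 markers (Tnnt2, a difference of 0.20) had separate groups. The sum of the 4 neural tube markers was 7.53 to 8.41 in wild-type and 6.62 to 7.69 in null pools. Groups did not overlap for 2 of the 4, Sox1 with a difference of -0.36 and Sox2 with -0.19. Over all genes tested, 16.1% had groups that did not overlap, so counts among 4 markers say little. Sums overlapped for somite markers (15.3 to 19.5 and 13.3 to 19.6), primitive erythroid markers (256 to 410.1 and 212 to 369.9) and the 5 trophoblast and decidua markers on the array (0.48 to 0.73 and 0.33 to 0.83). Of these 5, 3 were detected on all arrays, and 1 of them, Ascl2, had groups that did not overlap (a difference of 0.54). No marker of these lists was called, except that with the pool number as a replicate block Sox1 was (limma adjusted p = 0.0291, against 0.0683 without it). That fit called 2343 of all 17099 genes. Tnnt2, Sox1, Sox2 and Ascl2 were named after their values were seen. The part of these shifts in any result below was not tested. In whole-embryo RNA a change in the number of cells that express a gene cannot be told apart from a change in RNA per cell.

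Of the 10 members, 2 rose in the null embryos, Jmjd2c and Jmjd1a, and 0 fell. Over all genes tested, 4.20% were called, 2.85% as higher and 1.35% as lower in the null pools. The groups did not overlap for the same 2 members, against 16.1% of all genes. The mean was higher in the null pools for 9 of the 10 members, and for 10 with quantile normalization, 8 with no shift between arrays and 6 with median scaling. The same held for 8335 of the 17099 genes tested (48.7%). The median difference was 0.17 over the members and -0.01 over all genes, and with median scaling 0.08 and -0.10. Jmjd1a and Jmjd2c differed 1.46-fold and 1.42-fold, and the other 8 members differed by 0.26 or less on the log2 scale.

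**Figure D1:**
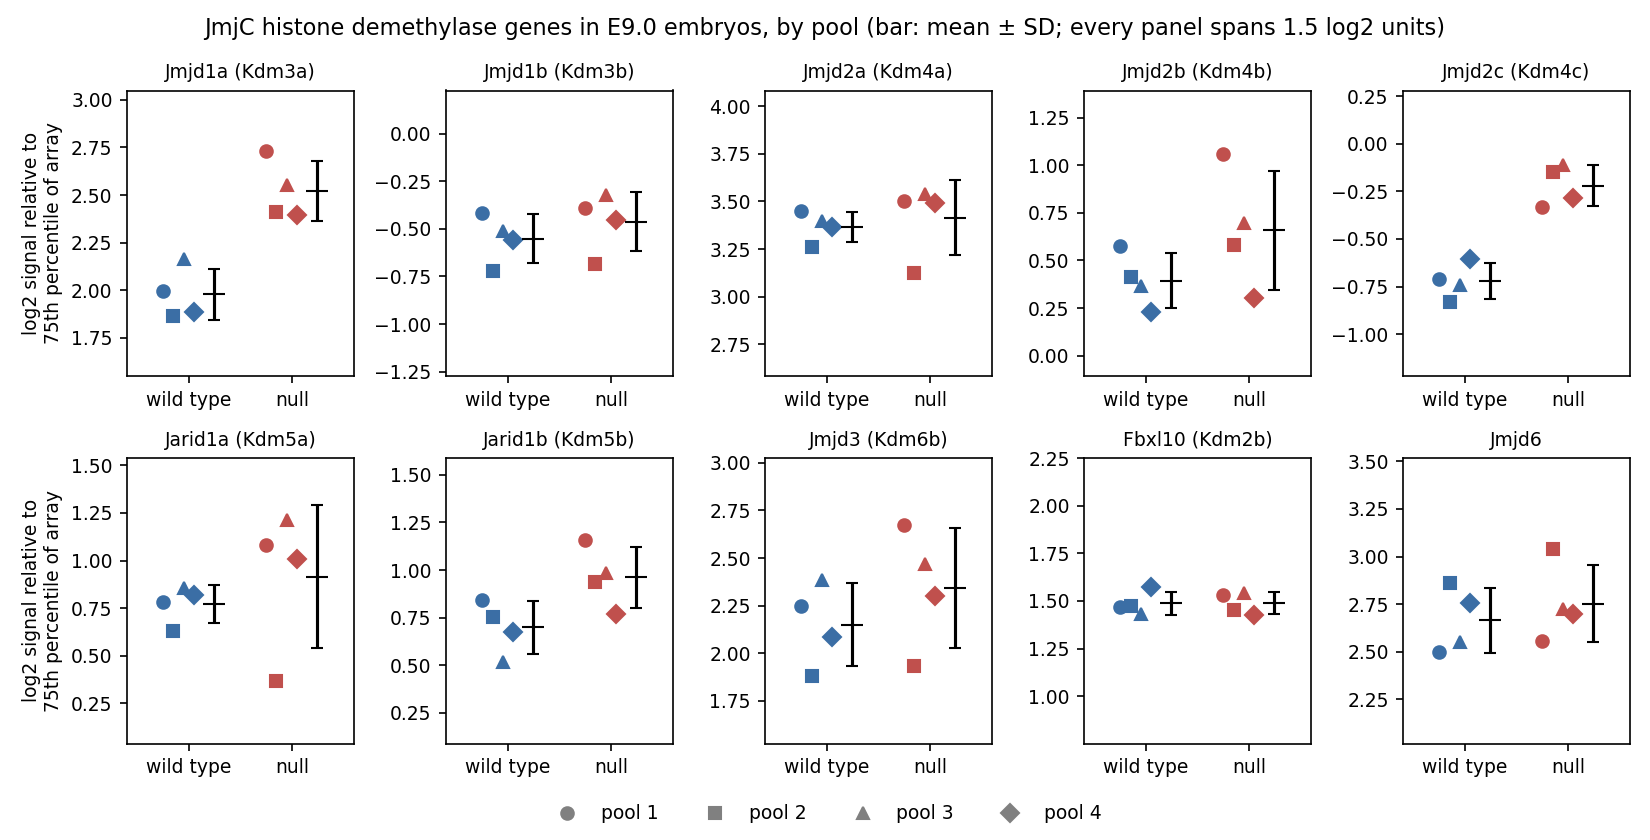
Level of each of the 10 genes in each pool, as log2 signal relative to the 75th percentile of its array, with blue points for wild-type and red for Arid3b-null pools, a marker shape per pool number, and a bar for the mean and SD (n = 4 pools). Jmjd1a and Jmjd2c are the panels in which all null pools lie above all wild-type pools, and null pool 2 lies below every other pool for Jarid1a and Jmjd2a.

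Jmjd1a encodes a demethylase of H3K9me2, known for its roles in spermatogenesis, metabolism and sex determination. Its brightest probe lies at chr6:71607190-71607249 (mm7, minus strand). The wild-type pools read 1.99, 1.87, 2.16 and 1.89, and the null pools 2.73, 2.41, 2.55 and 2.40. The lowest null pool thus stood above the highest wild-type pool, and null pool 1 was the highest of all. The means were 1.98 ± 0.14 in wild-type and 2.52 ± 0.16 in null pools (SD, n = 4 in each group), a difference of 0.54 ± 0.11 (95% interval 0.30 to 0.79, limma adjusted p = 0.0350). An exact two-sided permutation test of the 8 pools gave p = 0.0286, the smallest that 70 arrangements can give. All 3 Jmjd1a probes had groups that did not overlap. The other 2 are dimmer, at chr6:71609847-71609906 and chr6:71621125-71621184, and differed by 0.64 ± 0.13 and 0.84 ± 0.20. Adjusted over all 25555 probes kept, of which 3.46% were called, the limma p-values of the 3 probes were 0.0376, 0.0458 and 0.0625.

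Jmjd1b encodes the close paralogue of JMJD1A with the same histone target. Its only probe read -0.42, -0.72, -0.51 and -0.56 in wild-type pools 1 to 4 and -0.39, -0.68, -0.32 and -0.45 in null pools 1 to 4. The groups overlapped across nearly their whole range, and pool 2 was the lowest in both. The difference was 0.09 ± 0.10 (95% interval -0.15 to 0.33, limma adjusted p = 0.698), an interval that leaves out a rise as large as that estimated for Jmjd1a. The log2 ratio of Jmjd1a to Jmjd1b within each pool was higher by 0.45 ± 0.09 in the null pools, with no overlap. This was 1 of 4 comparisons of paralogues chosen after the values were seen, and its exact permutation p was 0.0286, or 0.0571 after Benjamini-Hochberg adjustment over the 4, which does not pass 0.05. Since 0.0286 is the smallest p that 70 arrangements can give, the adjusted test could not have passed with the other pairs as they were.

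Jmjd2c encodes a demethylase of H3K9me3 and H3K36me3 that is active in embryonic stem cells. Its brightest probe, at chr4:73809118-73809177 (mm7, plus strand), read -0.71, -0.83, -0.74 and -0.61 in the wild-type pools. In null pools 1 to 4 it read -0.33, -0.15, -0.11 and -0.29. The 2 groups stood apart by more than the spread within either. Means of -0.72 ± 0.09 and -0.22 ± 0.11 (SD, n = 4 in each group) gave a difference of 0.50 ± 0.08 (95% interval 0.31 to 0.69, limma adjusted p = 0.0233). The exact two-sided permutation p was again the smallest possible, 0.0286. The other Jmjd2c probe kept, at chr4:73734394-73734453 and close to the background at a wild-type mean of -5.08, did not show this difference (0.05 ± 0.14, limma adjusted p = 0.894 over probes). With the mean of both probes in place of the brightest, the difference was 0.28 with a limma adjusted p of 0.129, so the call rests on 1 probe. A further probe annotated to Jmjd2c lies on the opposite strand and was well above background on 0 arrays.

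Jmjd2a and Jmjd2b encode enzymes of the same subfamily. Jmjd2a read 3.45, 3.26, 3.40 and 3.37 in wild-type pools and 3.50, 3.12, 3.54 and 3.49 in null pools. Its difference was 0.05 ± 0.11 (95% interval -0.20 to 0.29, limma adjusted p = 0.870), and its second probe gave -0.02 ± 0.15. Jmjd2b read 0.57, 0.41, 0.36 and 0.23 in wild-type pools and 1.06, 0.58, 0.70 and 0.30 in null pools, each null pool above the wild-type pool of its number but with groups that overlapped. Its difference was 0.26 ± 0.16 (95% interval -0.10 to 0.63, limma adjusted p = 0.407), which leaves room for a rise as large as that of Jmjd2c. Within pools, the log2 ratio of Jmjd2c to Jmjd2a was higher by 0.45 ± 0.13 in the null pools with no overlap (exact permutation p = 0.0286, adjusted 0.0571). The ratio of Jmjd2c to Jmjd2b was higher by 0.24 ± 0.20, with overlapping groups (exact permutation p = 0.343, adjusted 0.457). The Jmjd2 genes therefore differed in their point estimates. For Jmjd2c and Jmjd2a the p was the smallest that 70 arrangements can give, so the adjusted test could not decide whether they differed in response. The pair of Jmjd2c and Jmjd2b did not pass before adjustment either.

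Jarid1a and Jarid1b encode demethylases of H3K4me3. Jarid1b came nearest to the 2 called members, at 0.85, 0.76, 0.52 and 0.67 in wild-type pools and 1.16, 0.94, 0.98 and 0.77 in null pools. Only null pool 4 fell below the highest wild-type pool. The difference of 0.26 ± 0.11 (95% interval 0.02 to 0.51) had an unadjusted limma p of 0.0392 and an adjusted p of 0.213, and the exact permutation p was 0.0571. The second Jarid1b probe read -0.25, -0.28, -0.09 and -0.11 in wild-type and 0.34, 0.07, 0.78 and 0.07 in null pools. There the groups did not overlap and the difference was 0.50 ± 0.16, with a limma adjusted p of 0.128 over probes. Jarid1a read 0.78, 0.63, 0.86 and 0.82 in wild-type pools and 1.08, 0.37, 1.21 and 1.01 in null pools. Null pools 1, 3 and 4 lay above every wild-type pool and null pool 2 below every one, and the difference was 0.14 ± 0.18 (95% interval -0.26 to 0.55, limma adjusted p = 0.721). A second Jarid1a probe showed the same low value in null pool 2 (0.37, against 0.66 to 0.99 in the other null pools) and a difference of 0.26 ± 0.14 (limma adjusted p = 0.350 over probes). Of the 2 remaining Jarid1a probes, 1 was well above background on 3 arrays and the other on 0, and neither was kept. The ratio of Jarid1b to Jarid1a differed by 0.12 ± 0.22 (exact permutation p = 0.629, also 0.629 after adjustment).

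Jmjd3 encodes an H3K27me3 demethylase that opposes Polycomb silencing. It read 2.25, 1.88, 2.39 and 2.09 in wild-type pools and 2.67, 1.93, 2.47 and 2.30 in null pools. Pool 2 was the lowest in both groups, and each null pool was above the wild-type pool of the same number. The difference was 0.19 ± 0.17 (95% interval -0.21 to 0.59, limma adjusted p = 0.603). Its only probe lies at chr11:69481626-69481770 (mm7, minus strand).

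Fbxl10 encodes an H3K36me2 demethylase whose zinc finger binds unmethylated CpG DNA and brings a variant Polycomb complex, PRC1.1, to promoters. It was the member with the smallest difference and the smallest spread, reading 1.47, 1.48, 1.43 and 1.57 in wild-type and 1.53, 1.45, 1.54 and 1.43 in null pools. The difference was -0.00025 ± 0.068 (95% interval -0.16 to 0.16, limma adjusted p = 0.999). That interval leaves out changes of the size estimated for Jmjd1a and Jmjd2c. Of its 2 other probes, 1 adjoins the brightest, sharing 1 base with it, and gave 0.01 ± 0.08. The other was close to background and gave 0.15 ± 0.16.

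Jmjd6, listed on the array under its older name Ptdsr, encodes a JmjC protein described as a lysyl hydroxylase and, less certainly, as an arginine demethylase of histones. It read 2.50, 2.86, 2.55 and 2.76 in wild-type pools and 2.55, 3.04, 2.72 and 2.70 in null pools. Pool 2 was the highest in both groups, the reverse of its place for Jmjd3 and Jmjd1b. The difference was 0.09 ± 0.13 (95% interval -0.21 to 0.38, limma adjusted p = 0.776). The 2 other probes, both dim, did not agree, with 0.41 ± 0.14 and no overlap of groups on one (limma adjusted p = 0.144 over probes) and -0.03 ± 0.17 on the other.

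**Figure D2:**
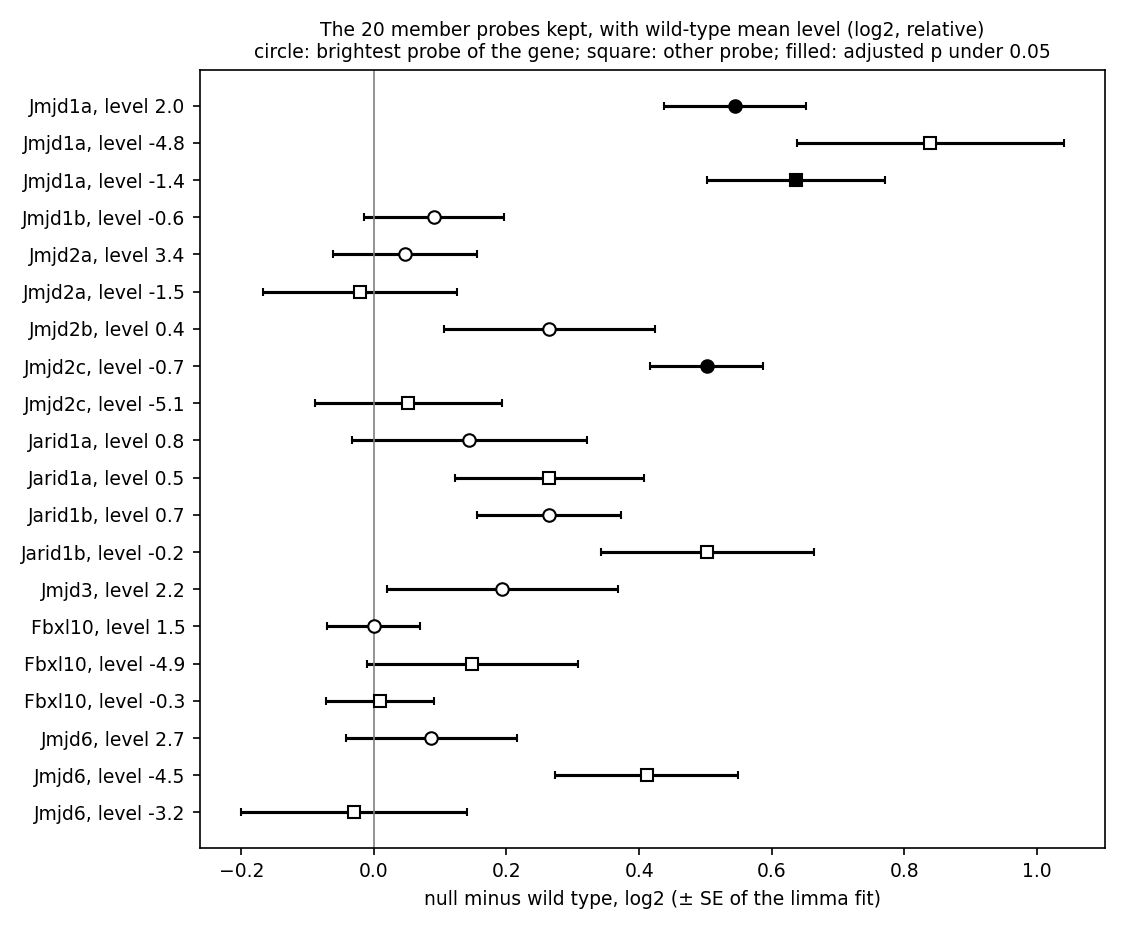
Null minus wild-type difference (log2, ± standard error from limma over 8 arrays) of the 20 member probes kept, circles for the brightest probe of a gene and squares for its others, filled where the adjusted p over all probes was under 0.05. The 3 filled points are 2 probes of Jmjd1a and 1 of Jmjd2c, and 17 of the 20 points lie above 0.

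At the level of probes, 3 of the 20 kept were called, all higher in the null pools, against 3.46% of all probes kept, and 6 had groups that did not overlap, against 15.7%. The mean was higher in null pools on 17 and lower on 3. Probes of 1 gene share their transcript and are not separate evidence. Of the 7 members with several kept probes, Jmjd1a was the one whose probes all had separate groups, whereas for Jmjd2c, Jarid1b and Jmjd6 this held for some probes and not others.

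The 2 calls did not hold under every choice of pools and processing. With 1 pool left out at a time, Jmjd1a differed by 0.48 to 0.61 and Jmjd2c by 0.47 to 0.54, and the null pools remained higher in each case. The limma adjusted p of Jmjd1a ran from 0.0425 to 0.109 in these 8 fits. It stayed under 0.05 without null pool 4 and passed it on leaving out any of wild-type pools 1 to 4 or null pools 1, 2 or 3. That of Jmjd2c ran from 0.0356 to 0.0807, under 0.05 without null pools 1, 2 or 4 and over it without any wild-type pool or null pool 3. Over 21 alternatives in all, Jmjd1a was called in 6 and Jmjd2c in 8, and the difference was above 0 in each, from 0.45 to 0.67 for Jmjd1a and from 0.28 to 0.58 for Jmjd2c. Within slide 1 the differences were 0.64 and 0.53, and within slide 2 they were 0.45 and 0.47, in the same order, with 2 pools per group and limma adjusted p from 0.197 to 0.395.

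**Figure D3:**
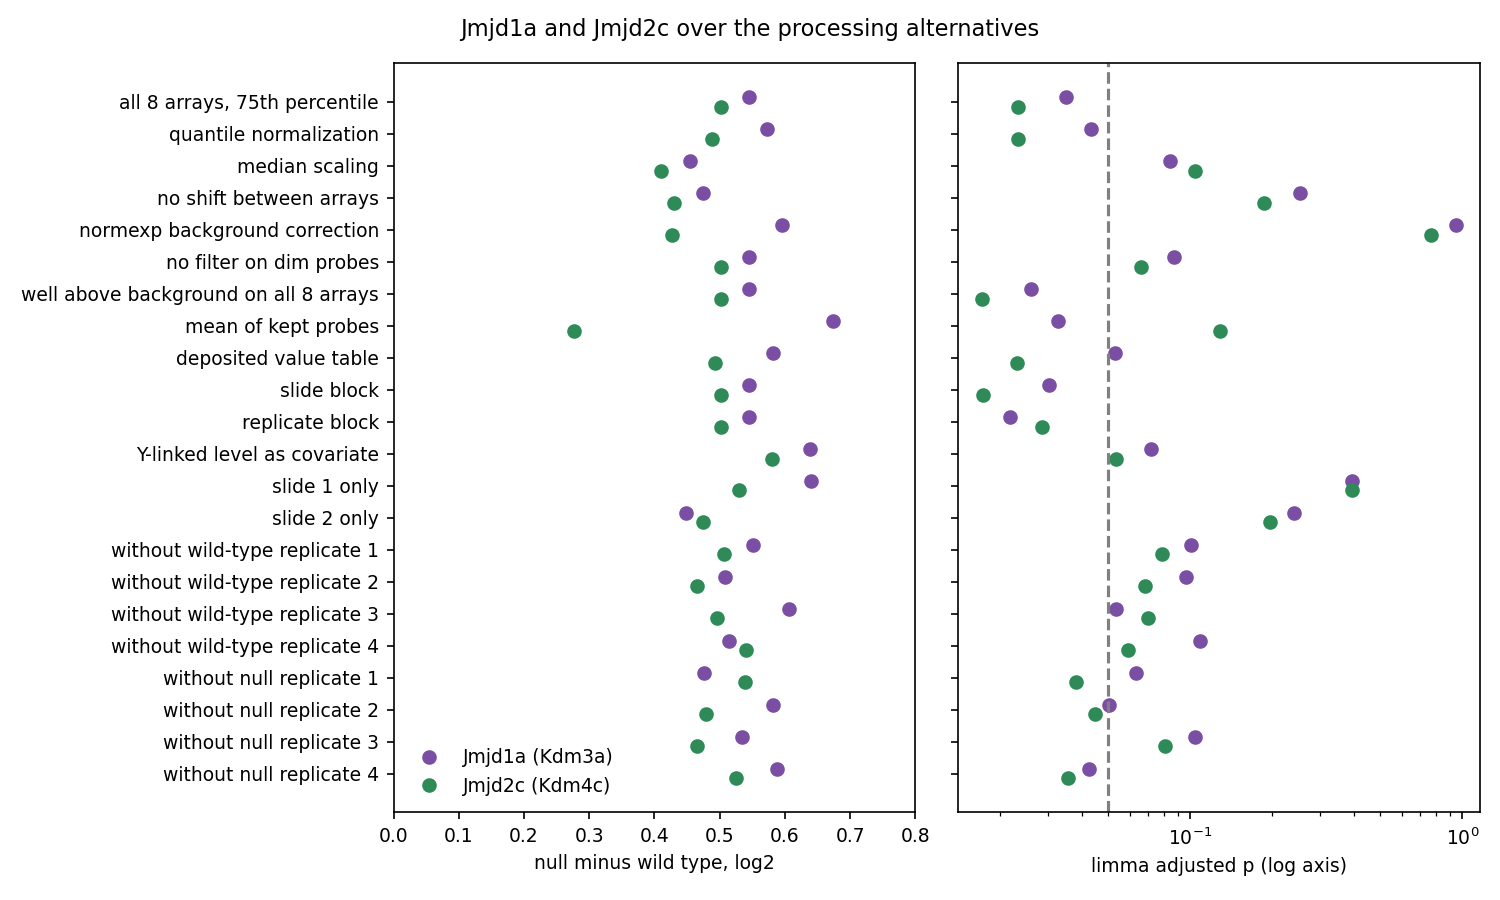
Null minus wild-type difference (log2, left) and limma adjusted p (log axis, right) of Jmjd1a and Jmjd2c with all 8 arrays and under each of the 21 alternatives, with a dashed line at 0.05. The differences stay above 0 throughout, and the adjusted p lies on either side of 0.05.

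The pools also differed in embryo sex, which touches the JmjC family because some of its genes lie on the sex chromosomes. The X-linked Kdm5c, an H3K4me3 demethylase that escapes X inactivation, read 3.17, 2.60, 3.17 and 3.24 in wild-type and 3.03, 2.45, 3.15 and 2.84 in null pools. It was lowest in pool 2 of each group, in which Xist, the transcript of the inactive X, was at -7.03 (wild type) and -7.86 (null), against 1.42 to 1.71 in the other wild-type pools. Xist was also low in null pool 4 (-7.56), where Kdm5c read 2.84, and stood at 1.02 and 0.94 in null pools 1 and 3. The autosomal Jmjd1b and Jmjd3 were likewise lowest in pool 2 of both groups, and the cause of the Kdm5c values was not tested. Its Y-linked counterpart Kdm5d read -8.07, -1.20, -2.62 and -7.00 in wild-type and -1.71, -1.11, -1.58 and -0.80 in null pools, and exceeded background clearly in all 4 null pools but only in 2 wild-type pools. The X-linked H3K27me3 demethylase Kdm6a differed by -0.18 ± 0.20 (limma adjusted p = 0.679) and Kdm5c by -0.18 ± 0.19 (0.674). Uty, the Y-linked counterpart of Kdm6a, exceeded background clearly in 3 null pools and 1 wild-type pool (limma adjusted p = 0.175). The Y-linked level, the mean of Ddx3y and Eif2s3y each set relative to its highest pool, was 0.0034, 0.86, 0.27 and 0.0039 in wild-type pools and 0.57, 0.86, 0.51 and 1 in null pools. With this level as a covariate, Jmjd1a differed by 0.64 (limma adjusted p = 0.0718) and Jmjd2c by 0.58 (0.0535), and neither was called.

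**Figure D4:**
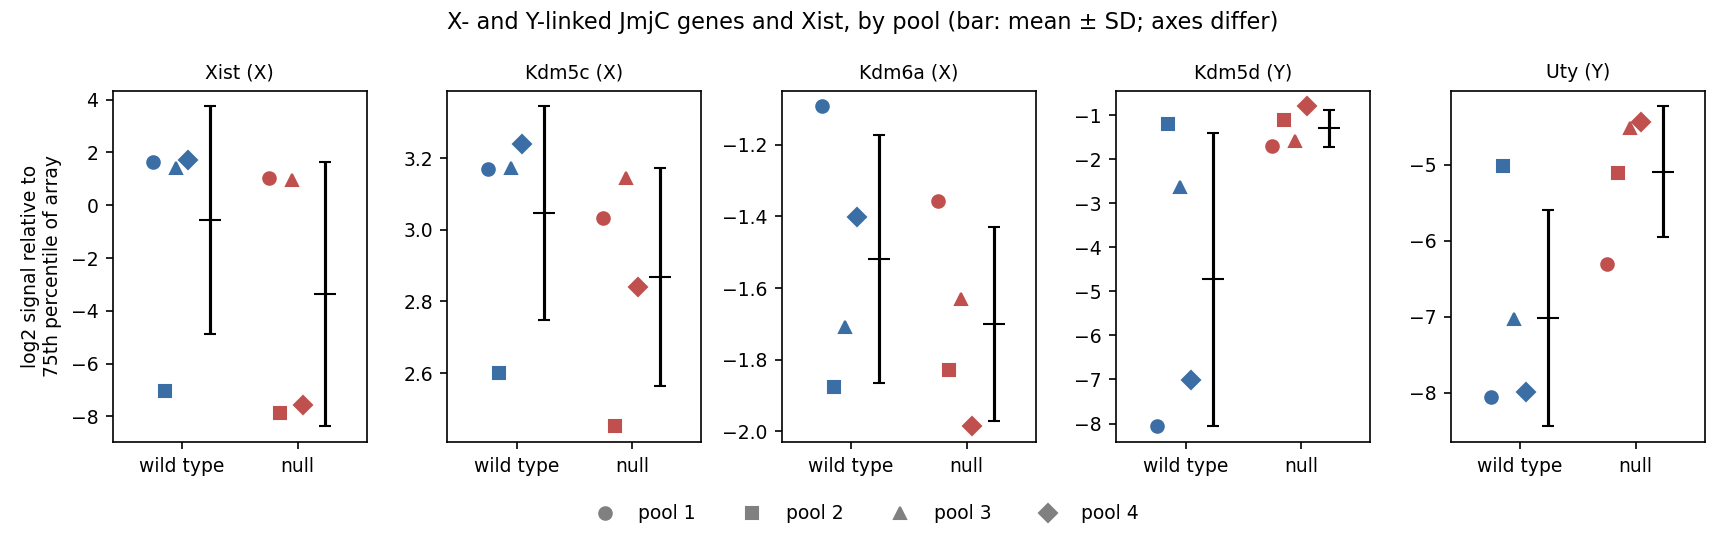
Level of Xist, of the X-linked Kdm5c and Kdm6a and of the Y-linked Kdm5d and Uty in each pool, as log2 signal relative to the 75th percentile of its array, with the mean and SD of 4 pools per group and a separate axis for each gene. Xist is low in wild-type pool 2 and null pools 2 and 4, and Kdm5d is low in wild-type pools 1 and 4.

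The other genes of the JmjC fold gave 0 calls, against 4.20% of all genes tested. Of 21 further JmjC genes, 18 were measured. An unadjusted limma p under 0.05 was found for 7 of these, against 20.7% of all genes tested. Groups did not overlap for 4, against 16.1% of all genes. The median difference was -0.11, and 13 means were lower, against 8764 of all 17099 genes. Jarid2, a catalytically inactive JmjC protein of the Polycomb complex PRC2, came nearest. It read 1.54, 1.53, 1.64 and 1.53 in wild-type and 2.04, 1.80, 2.04 and 1.82 in null pools, with no overlap and a difference of 0.37 ± 0.08 (limma adjusted p = 0.0537). With the pool number as a replicate block, in a fit that called 2343 of all 17099 genes tested, it passed the threshold (0.0293). The same fit also called Kdm7a, a demethylase of H3K9me2 and H3K27me2 that was higher by 0.69 (adjusted p = 0.0188, against 0.0690 without the block), and Phf2, lower by a difference of -0.37 (0.0252, against 0.0931). Kdm7a and Phf2, and Setd1b and Ogdh below, were named after their values were seen. Hr, Jmjd7 and Kdm4d gave no measurement.

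Calls were also absent in 3 further lists of chromatin genes, which at 4.20% of all genes called is little removed from that share in lists this short. Over all genes tested, 20.7% had an unadjusted limma p under 0.05, and 8764 of 17099 means were lower in null pools. Among the flavin-dependent demethylases and their CoREST partners, 0 of 8 were called, 1 had an unadjusted p under 0.05 and the median difference was -0.01, with Kdm1b at -0.21 ± 0.07 (limma adjusted p = 0.154). Of the 25 histone lysine methyltransferases 0 were called and 1 had an unadjusted p under 0.05. Their median was -0.08, 21 of the 25 means were lower in null pools (19 to 22 over the scalings tried), and Suv39h1, which lays down H3K9me3, differed by -0.15 ± 0.06 (limma adjusted p = 0.239). With the replicate block 1 of them, the H3K4me3 methyltransferase Setd1b, was called (-0.40, limma adjusted p = 0.0419), against 2343 of all 17099 genes. The 10 partners of Fbxl10 in PRC1.1 and its relatives had 0 calls, 1 unadjusted p under 0.05 and a median of -0.03, with Cbx8, a chromobox protein of PRC1, at -0.29 ± 0.08 (limma adjusted p = 0.0793).

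The enzymes that share the members' chemistry or supply it gave 0 calls as well, in short lists and against 4.20% of all genes tested. An unadjusted limma p under 0.05 was found for 20.7% of all genes. Of 12 dioxygenases acting on nucleic acids, such as the TET and ALKBH proteins, 1 had an unadjusted p under 0.05 and the median was 0.01. The RNA demethylase Alkbh5 differed by 0.27 ± 0.08 (limma adjusted p = 0.111). Of 14 enzymes that make or use 2-oxoglutarate, succinate or fumarate, 2 had an unadjusted p under 0.05 and the median was -0.03. Idh1, which makes 2-oxoglutarate in the cytosol, differed by -0.28 ± 0.08 (limma adjusted p = 0.0807). With the replicate block Idh1 was called (0.0358), as was Ogdh, a subunit of the 2-oxoglutarate dehydrogenase complex (-0.28, limma adjusted p = 0.0332). That fit called 2343 of all 17099 genes.

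The list of HIF regulators and known HIF targets was drawn up with earlier results of these data known, and its counts are a description. Of 24 genes measured 16 rose and 0 fell, 18 had groups that did not overlap, and the median difference was 0.85, against 0.17 for the 10 members. Over all genes tested, 2.85% were called as higher and 1.35% as lower, and 16.1% had groups that did not overlap. With the replicate block 19 of the list rose and 1 fell, in a fit that called 2343 of all 17099 genes. The block added Car9 (0.80, limma adjusted p = 0.0330, against 0.0642 without it), Ldha (0.25, 0.0421 against 0.241) and Pgk1 (0.32, 0.0337 against 0.0799) to the rises, and the prolyl hydroxylase Egln2 (-0.23, 0.0488 against 0.541) as a fall. The count of called genes was 9 without wild-type pool 1, wild-type pool 4 or null pool 3, 10 with no shift between arrays, and 0 with normexp background correction or within either slide. Bhlhe40, a transcriptional repressor induced by low oxygen, rose by 3.05 ± 0.14 (limma adjusted p = 0.000297). Ndrg1, a stress-response gene, rose by 2.38 ± 0.15 (0.00112), and Bnip3, a mitophagy receptor, by 1.39 ± 0.11 (0.00220). The rises of Jmjd1a and Jmjd2c, at 0.54 and 0.50, were thus below the median of that list. Among the oxygen sensors themselves, the prolyl hydroxylase Egln3 rose by 1.13 ± 0.18 (0.0195) and Egln1 by 0.84 ± 0.18 (0.0430). Hif1a, the oxygen-regulated subunit, had a difference of -0.28 ± 0.09 (limma adjusted p = 0.132). Egln1, Egln2, Egln3, Hif1a, Car9, Ldha and Pgk1 were named after their values were seen. Of the 20 genes of this list with a promoter window, 19 held an ACGTG or GCGTG core in at least 1 window. Of all 27025 genes with a window 46.7% did, and base composition and the number of windows per gene were not matched.

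**Figure D5:**
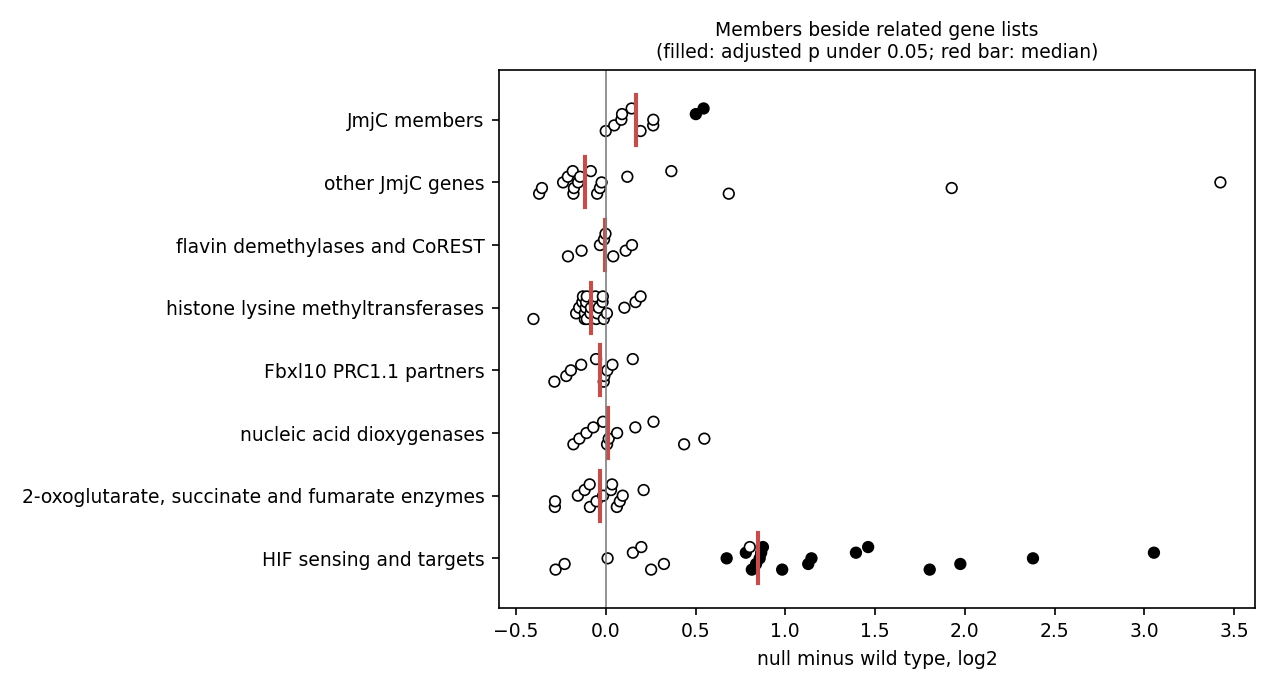
Null minus wild-type difference (log2) of each measured gene of the 10 members and of 7 related lists, filled where the limma adjusted p over all genes was under 0.05, with a red bar at the list's median. The members' median is 0.17 and that of the HIF list 0.85, while the medians of the other lists lie between -0.11 and 0.01. The far right points among the other JmjC genes are the Y-linked Kdm5d and Uty, which depend on embryo sex.

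The members also varied between pools within each genotype. The counts of lowest and highest pools that follow were not made over all genes, so they are not shown to be particular to the members. Among the wild-type pools, pool 2 was the lowest for 6 of the 10 members. Among the null pools, pool 2 was the lowest for 4 members, pool 4 for 4 and pool 1 for 2, while pool 3 was the highest for 5, pool 1 for 4 and pool 2 for 1. The mean over the 10 members was 1.27, 1.16, 1.24 and 1.22 in wild-type pools 1 to 4 and 1.56, 1.30, 1.53 and 1.37 in null pools 1 to 4. Every null pool thus lay above every wild-type pool in this mean, which includes Jmjd1a and Jmjd2c. Pool 2 was the lowest in both groups, and null pools 1 and 3 were the highest. Pool 2 also had the lowest signal at the 75th percentile in each group (1339 in wild type and 1280 in null), and a link was not tested. Pool 4 of the null group, the one with the most Arid3b signal (2.48), had the lowest null values for Jmjd1a, Jmjd2b, Jarid1b and Fbxl10. Null pool 2, the one with the least (1.83), was likewise the lowest for 4 members. For Jmjd1a, null pools 4 and 2 read 2.40 and 2.41. A relation to the Arid3b level was not tested.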

How the data were processed

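Total RNA of 8 pools of whole embryos was measured on 1-colour Agilent arrays. Per the file headers, Feature Extraction 9.5.3.1 gave the processed intensity of each spot, the Cy3 brightness after background subtraction and detrending, not scaled between arrays. The series also has a table of log2 values deposited by the authors (27108 probes), whose scale and added constant are not given in the sources used here. It served as an alternative, and the deposited mean and background intensities served for another.

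Control spots and outlier-flagged spots (87 to 175 per array) were left out, spots of a probe averaged as log2, and each array's 75th percentile subtracted. A probe was kept if it was well above background on 4 or more of the 8 arrays (25555 probes), the brightest standing for its gene, with at least 2 values per group. Names were updated through RefSeq (GRCm38.p6), 22951 probes by accession, 6659 by symbol and 3109 by an older name, while 8455 kept the file's name. Probe coordinates are those of the files (mm7) and promoter coordinates those of RefSeq (GRCm38.p6), and neither was converted. limma 3.58.1 in R 4.3.3 (lmFit, eBayes, genotype as the only term) was adjusted by Benjamini-Hochberg over 17099 genes, of which 718 were called.

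Named are the members, Arid3b, Kdm5c, Kdm5d, Kdm6a, Uty and, per list, up to 3 called genes of smallest adjusted p, or the gene of smallest p where none was called. The members and lists were chosen with earlier results of these data known. The paralogue comparisons were added after the values were seen. On simulated data for 17002 genes of this comparison, the fit recovered 38% of genes changed 1.5-fold. It recovered 73% of those changed 2-fold and 86% of those changed 4-fold, and 2 of 137 calls were false. Whether these shares hold for the measured pools was not tested. Equal pool numbers deviated together (r = 0.557, 0.635, 0.523 and 0.426 for numbers 1 to 4 across genes). Pools of equal number were taken as pairs only in the fit with the replicate block. The main fit, with genotype as its only term, its intervals and the exact permutation tests left the pairs out. With slide means removed, r was 0.518 for numbers 1 and 2 and 0.0981 for numbers 3 and 4. Values from fits with this block stand beside each listed gene whose call differs.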

Additional observations from a re-analysis of the deposited data

Results flagged for a closer look

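In 5 of 48 groups of 4 pools examined, the highest or lowest pool stood apart from the rest by Dixon's ratio of its gap to the group's range, beyond the limit that chance passes in about 5% of groups. Among the members this was Jmjd2a (Kdm4a) in the null group, with a ratio of 0.881, where null pool 2 read 3.12 and the others 3.49 to 3.54. Arid3b in the null group had a ratio of 0.903, with null pool 4 at 2.48 and the others at 1.83 to 1.89. Jarid2 in the wild-type group had a ratio of 0.860, with pool 3 at 1.64 and the others at 1.53 to 1.54. Kdm1b in the wild-type group had a ratio of 0.902, with pool 4 at 0.89 and the others at 0.98 to 0.99. Kdm5c in the wild-type group had a ratio of 0.894, with pool 2 at 2.60 and the others at 3.17 to 3.24.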

How the results depend on the processing

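With all arrays 718 genes were called, 67.8% of them higher in the null pools. Median scaling gave 204 (52.0% higher), no shift between arrays 157 (79.6%), normexp background correction 0 (740 at an unadjusted p under 0.05), no filter on dim probes 164, the values of the deposited table gave 308 and the Y-linked covariate 195. Slides 1 and 2 alone gave 0 each (1881 and 2861 unadjusted) with 2 pools per group. The slide block gave 1370 and the replicate block 2343, and leaving out 1 pool gave 93 to 628. The count of members called was 0 with median scaling, no shift, normexp, no filter, the Y-linked covariate or either slide alone, 1 with the mean of kept probes or the deposited table, and 0 to 2 with 1 pool left out. It was 2 in the paired fit with the replicate block, which changed the call of no member. The members' median was 0.32 with the Y-linked covariate and 0.11 to 0.28 with 1 pool left out. Directions turned for genes that were not called, by small differences except for Uty, which was at 1.93 with all arrays and the usual processing. Fbxl10 (Kdm2b) was at 0.027 with quantile normalization, 0.017 with normexp, 0.052 with the mean of probes, 0.045 with the covariate, 0.020 on slide 1 and -0.018 to 0.028 with 1 pool left out. Jmjd1b (Kdm3b) was at -0.00052 with median scaling. Jmjd2a (Kdm4a) was at -0.044 with median scaling, -0.024 with no shift and -0.041 on slide 1. Jmjd6 was at -0.0043 with median scaling, -0.047 with the covariate and -0.0081 to 0.15 with 1 pool left out. With normexp Cbx8 was at 0.13 and Uty at -0.10, and with the covariate Kdm5c was at 0.16 and Kdm6a at 0.18. The cause of these changes was not tested. After normexp the 10th percentile was -1.30 in wild-type pool 4 and -1.89 in null pool 4, against -3.56 to -4.68 elsewhere. Probes near background, such as the second of Jmjd2c and Fbxl10, have little signal over it, which limits what they can show.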
